A study of Mus musculus with 64 samples.

Results

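The genes described here are Cd40, Cd80, Cd86, Cd274, Pdcd1lg2, Icosl, Havcr2 and Lag3, which carry signals that strengthen or restrain T cells. They were chosen by name and make up 8 of the 25239 genes in the batch-corrected count table. Cd80, Cd86, Cd274 (PD-L1), Pdcd1lg2 (PD-L2) and Icosl encode ligands of the B7 family, whereas Cd40, Havcr2 (TIM-3) and Lag3 encode receptors. All 8 were among the 13584 genes that passed the filter on low counts. For Pdcd1lg2 this rested on the injected eyes, because 16 of the 19 naive libraries held 3 counts or fewer for it.

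Each library was prepared from 600 retinal microglia sorted from 1 retina of a Cx3cr1CreER:R26-tdTomato +/- mouse on a C57BL/6J background. In these mice Cre is driven from the Cx3cr1 locus, so tamoxifen labels microglia and other cells with Cx3cr1 activity, and a washout of weeks followed so that labelled circulating cells could turn over. Cells were gated as high for tdTomato and negative for the dead-cell dye DRAQ7. Injected eyes received intravitreal AAV2 without a transgene at 1E10 genome copies per eye and were collected at day 12 (D12) or day 28 (D28), whereas naive eyes were not injected. No sham-injected eye was sequenced, so the effects of the vector and of the injection cannot be told apart. The mice were 3, 9 or 18 months old and of both sexes, which gave 18 groups of 2 to 4 libraries. Over both sexes there were 7 naive, 8 D12 and 7 D28 libraries at 3 months, 5, 7 and 7 at 9 months, and 7, 7 and 7 at 18 months.

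Antigen-presenting cells give a T cell a second signal beside antigen. CD80 and CD86 bind the activating receptor CD28 and the inhibitory receptor CTLA-4, and ICOSL binds ICOS. CD40, engaged by CD40 ligand on helper T cells, licenses the presenting cell and raises its costimulatory ligands. PD-L1 and PD-L2 bind PD-1 and restrain T cells, and interferon gamma is a well-known inducer of PD-L1. TIM-3 and LAG-3 are best known as inhibitory receptors of T cells, and TIM-3 is also made by myeloid cells. Microglia are the resident macrophages of the retina and can take on functions of antigen-presenting cells.

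The 62 libraries used held 1450718 to 10056878 assigned reads before batch correction (median 4372692), and 3 counts corresponded to 0.361 to 2.12 CPM. Levels below are CPM, the batch-corrected counts of a gene scaled to the library total and its TMM factor. P2ry12 was among the highest of the microglia markers, and the sum of the microglia list had a median of 37862 CPM in naive, 16093 at D12 and 26160 at D28. T cell markers, led by Cd3g and Cd3d, summed to a median of 1.70 CPM in naive (0 to 208), 147 at D12 (3.67 to 493) and 86.5 at D28 (21.0 to 234). Cd3d was at 0 in 14 of 19 naive libraries and in 1 of 22 D12 libraries. The monocyte-derived cell list (Fn1 and Plac8 highest) had medians of 30.3, 194 and 13.2 CPM. Its genes did not move together, as Fn1 had medians of 0, 36.1 and 3.72 CPM and F13a1 of 19.2, 0 and 0.228 CPM. The NK cell list (Klrk1 and Klrb1c highest) had medians of 0.575, 21.0 and 4.93 CPM. The part of these cells in the results below was not tested. In such bulk libraries, fewer cells of a type and less RNA per cell cannot be told apart. Of the D12 libraries, 3 stood apart, with microglia marker sums of 29966 to 36532 CPM against 8798 to 21386 in the other 19. They were 9-month male replicate 2 and 18-month female replicates 1 and 2. 1 library labelled 18-month female D28 replicate 1 held Y-linked transcripts and no Xist and was left out by the rule that chose the members. 18-month male D28 replicate 4 carries D12 in its time-point tag and was kept at D28, as its title gives. Each library came from its own retina, and p-values measure the spread between retinas.

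Days were compared within an age in 1 edgeR quasi-likelihood fit of 18 group means, with both sexes weighted equally and p-values adjusted over the 13584 genes (Benjamini-Hochberg). "Rose" and "fell" below mean an adjusted p under 0.05. At D12, 4 of the 8 genes rose and 1 fell at 3 months, where 9.42% of all genes rose and 7.23% fell. At 9 months 3 rose and 2 fell, against 10.5% and 7.91% of all genes. At 18 months 5 rose and none fell by edgeR, against 9.53% and 6.02%, and 1 of the lower genes, Havcr2, had an unadjusted p under 0.05 and passed with DESeq2. The median log2 fold change of the 8 genes was 0.91, 0.30 and 0.82 at 3, 9 and 18 months, and that of all genes -5.2e-04, 0.06 and 0.03. Cd40, Cd274 and Pdcd1lg2 rose at every age, and the other genes changed at 1 or 2 ages each. Pdcd1lg2, counted among the genes that rose at each age, passed the filter on low counts through the injected eyes. Its rises therefore cannot be weighed against the share of all genes.

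**Figure D1:**
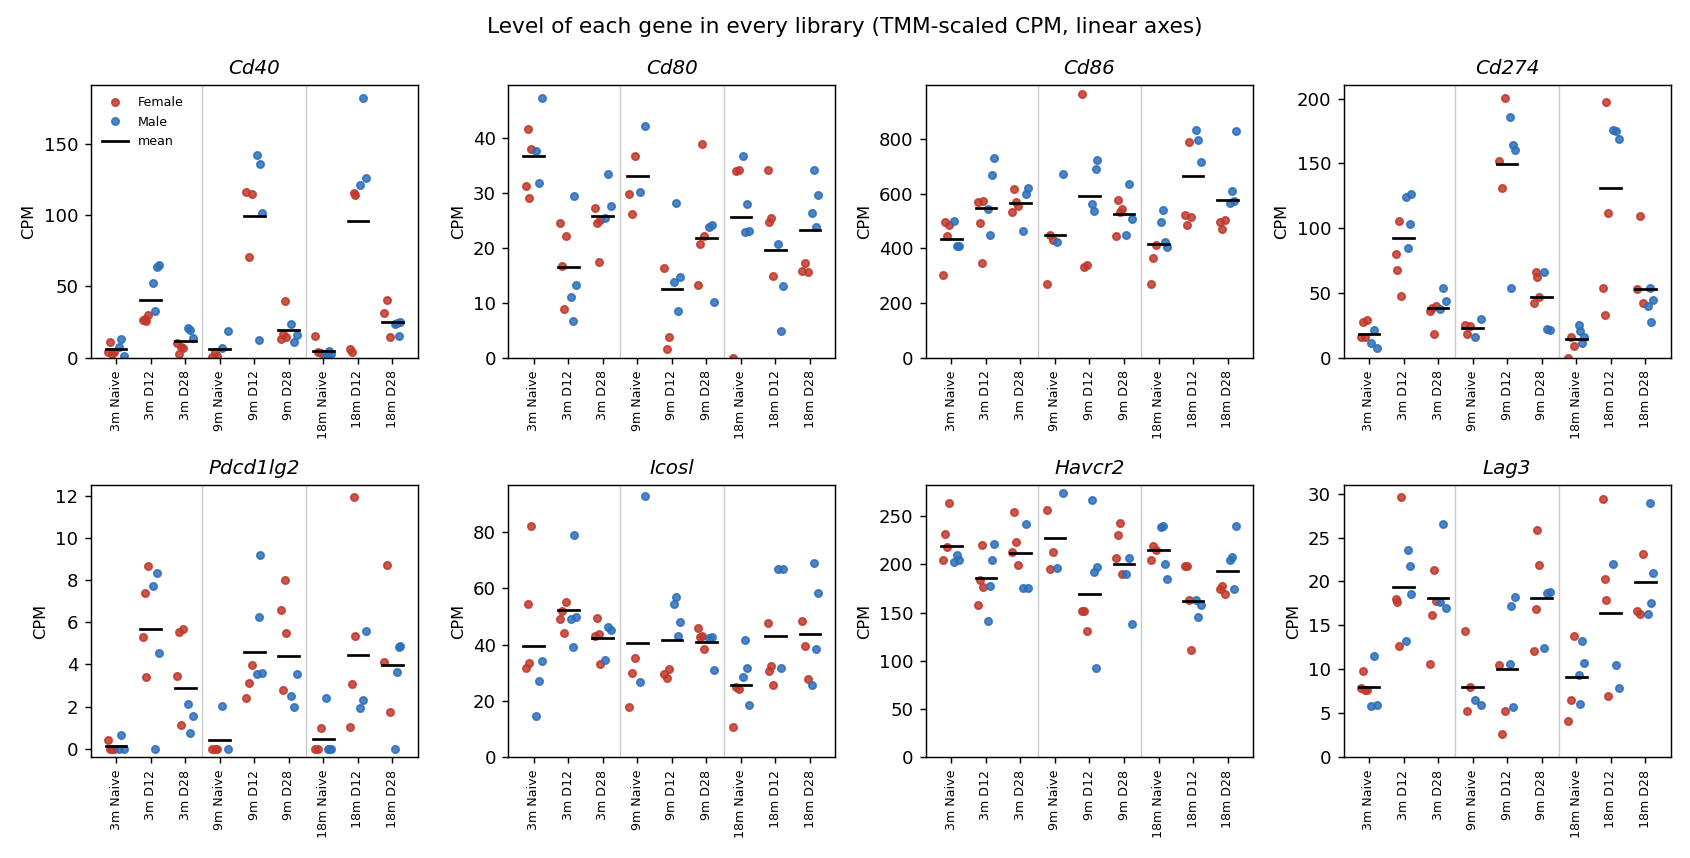
Level of each gene in every library, in TMM-scaled CPM on linear axes that differ between panels, by age (3m, 9m, 18m) and day, with females in red, males in blue and a bar at the group mean. At 3 months all 8 D12 libraries lie above the highest naive library for Cd40 and Cd274. Cd80 is lower at D12 than in naive eyes at 3 and 9 months, and 1 18-month naive library is at 0 for Cd80 and Cd274.

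Cd40, a receptor of the TNF receptor family, was low in naive microglia and rose at D12 at all 3 ages. At 3 months its lowest, median and highest levels were 1.28, 4.23 and 12.8 CPM in naive and 25.5, 31.5 and 65.5 CPM at D12. At 9 months the naive females had 0.211, 0.966 and 4.03 CPM and the naive males 6.92 and 18.7 CPM, against 12.0, 115 and 142 CPM at D12. At 18 months the levels were 1.84, 3.01 and 14.9 CPM in naive and 4.03, 116 and 183 CPM at D12. The groups did not overlap at 3 months, and 6 of 7 D12 libraries at 9 months and 5 of 7 at 18 months exceeded the highest naive library. The libraries that did not were the 3 with high microglia markers, at 12.0 CPM (9-month male replicate 2) and 5.77 and 4.03 CPM (18-month female replicates 1 and 2). The log2 fold change was 2.58 ± 0.50 (SE, adjusted p = 1.02e-04) at 3 months, 4.37 ± 0.65 (9.74e-07) at 9 months and 4.40 ± 0.56 (3.17e-08) at 18 months, which are 5.97-fold, 20.7-fold and 21.2-fold. Within the 2 collection days, taken from the uncorrected counts, the differences in mean log2 CPM were 2.92 and 2.54 at 3 months, 5.52 and 3.57 at 9 months and 1.88 and 4.42 at 18 months. Without those 3 libraries the 18-month value was 4.87. All 3 calls held without any single library and in each of 11 other ways of processing.

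At D28 Cd40 was lower than at D12 at every age. Its levels were 2.17, 10.4 and 20.5 CPM (lowest, median and highest) at 3 months, 11.1, 15.8 and 39.7 CPM at 9 months and 14.2, 24.6 and 40.3 CPM at 18 months. Of 7 libraries, 3, 2 and 6 were above the highest naive library. From D12 to D28 Cd40 fell by 1.81 ± 0.48 on the log2 scale at 3 months (adjusted p = 0.0232), by 2.42 ± 0.49 at 9 months (7.36e-04) and by 1.88 ± 0.48 at 18 months (0.018). Against naive it was higher at 18 months (log2 fold change 2.52 ± 0.53, adjusted p = 0.0012) and rose at 9 months (1.95 ± 0.59, 0.0454), while the 3-month difference of 0.77 ± 0.51 did not pass (0.579). The 9-month call at D28 was lost without any 1 of female naive replicates 1 and 3, male naive replicates 1 and 2, female D28 replicate 3 or male D28 replicates 2 and 4 (log2 fold change 1.68 to 2.41, adjusted p 0.0642 to 0.148), and it passed in 4 of 11 other ways of processing. The fall from D12 was lost at 3 months without female D28 replicate 2 or any of male D28 replicates 1 to 3 (-1.85 to -1.66, adjusted p 0.0535 to 0.0944). At 18 months it was lost without female D12 replicates 3 or 4, male D12 replicate 2 or female D28 replicates 2 or 4 (-1.92 to -1.62, 0.0554 to 0.0861) and passed in 5 of 11 other ways.

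Cd80 and Cd86, the paired ligands of CD28 and CTLA-4, did not both pass the test at any age. Cd80 fell at D12 at 3 and 9 months. Its levels at 3 months were 29.1, 37.6 and 47.3 CPM in naive and 6.69, 14.9 and 29.3 CPM at D12, with 7 of 8 D12 libraries below the lowest naive one. At 9 months the naive females had 26.2, 29.8 and 36.7 CPM and the naive males 30.1 and 42.1 CPM, against 1.56, 13.7 and 28.2 CPM at D12, and 6 of 7 D12 libraries lay below all of the naive ones. At 18 months the naive levels were 0, 27.9 and 36.8 CPM and the D12 levels 4.87, 20.7 and 34.1 CPM, and the groups overlapped. The library at 0 was 18-month female naive replicate 1, which also held no count of Cd274 and had a total of 2414260 reads and 11045 genes detected. Cd80 fell by 1.16 ± 0.38 on the log2 scale at 3 months (adjusted p = 0.0273) and by 1.61 ± 0.43 at 9 months (0.0057), and the 18-month difference of -0.49 ± 0.40 did not pass (0.456). The 3-month call was lost without male naive replicate 3, female D12 replicate 3 or male D12 replicates 1 or 2 (-1.10 to -1.03, adjusted p 0.0549 to 0.0714), whereas the 9-month call held without any single library. Within the 2 collection days the differences in mean log2 CPM were -1.38 and -1.13 at 3 months, -1.10 and -2.41 at 9 months, and 1.78 and -0.99 at 18 months, where the sign differed between the days. Both calls passed in 10 of 11 other ways of processing. At D28 Cd80 was intermediate, with medians of 25.4, 22.2 and 23.8 CPM at 3, 9 and 18 months, and it differed from neither naive (-0.50, -0.64 and -0.23) nor D12 (0.66, 0.97 and 0.26) by the test. Without 9-month female D12 replicate 1, the 9-month difference from D12 passed (1.70, 0.00766).

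Cd86 was abundant in every library, naive eyes included. Its naive levels were 304, 445 and 500 CPM at 3 months (lowest, median and highest), 270, 431 and 450 CPM in females and 424 and 674 CPM in males at 9 months, and 270.1, 414 and 540 CPM at 18 months. At D12 they were 348, 556 and 732 CPM at 3 months, 333, 564 and 965 CPM at 9 months and 485, 716 and 833 CPM at 18 months. Groups overlapped at every age, with 5 of 8, 3 of 7 and 4 of 7 D12 libraries above the highest naive one. Cd86 rose at 18 months alone by the test (log2 fold change 0.74 ± 0.18, adjusted p = 0.0025), a call that held without any single library and in 10 of 11 other ways of processing, with 0.51 and 0.82 within the collection days. The values at 3 and 9 months were 0.32 ± 0.17 (0.226) and 0.35 ± 0.20 (0.223), and the difference between ages did not pass a test of its own. At D28 the medians were 571, 534 and 568 CPM, and no difference from naive (0.38, 0.20 and 0.48) or from D12 passed.

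Cd274 rose at D12 at every age with the smallest overlap of the 8 genes. Its levels at 3 months were 7.67, 16.1 and 28.7 CPM in naive and 47.9, 93.8 and 126 CPM at D12. At 9 months the naive females had 18.6, 24.6 and 25.4 CPM and the naive males 15.9 and 29.9 CPM, against 53.8, 161 and 201 CPM at D12. At 18 months they were 0, 15.7 and 25.1 CPM in naive and 33.2, 169 and 197 CPM at D12. All 22 D12 libraries exceeded the highest naive library of their age, including the 3 with high microglia markers (53.8, 53.5 and 33.2 CPM). The log2 fold changes were 2.38 ± 0.35 (adjusted p = 5.42e-07), 2.72 ± 0.41 (1.23e-06) and 3.36 ± 0.37 (8.74e-10) at 3, 9 and 18 months, which are 5.20-fold, 6.58-fold and 10.3-fold. These calls held without any single library and in all 11 other ways of processing. Within the collection days the differences were 2.74 and 2.02 at 3 months, 2.86 and 2.48 at 9 months and 3.68 and 3.29 at 18 months.

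At D28 Cd274 was lower than at D12 and above naive to a degree that varied. The levels were 18.3, 38.1 and 53.6 CPM at 3 months, 20.9, 47.0 and 66.4 CPM at 9 months and 27.1, 44.5 and 109 CPM at 18 months, with 6, 5 and 7 of 7 libraries above the highest naive one. It fell from D12 by 1.23 ± 0.33 at 3 months (adjusted p = 0.0235), 1.77 ± 0.34 at 9 months (3.83e-04) and 1.30 ± 0.34 at 18 months (0.0191) on the log2 scale. Against naive it was higher at 18 months (2.06 ± 0.36, adjusted p = 6.55e-05), and the values of 1.15 ± 0.35 at 3 months (0.0549) and 0.95 ± 0.38 at 9 months (0.154) did not pass. The 3-month difference from naive passed without male naive replicate 2 or female D28 replicate 3 (1.25 to 1.40, adjusted p 0.0387 to 0.0415). The 3-month fall from D12 was lost without female D12 replicate 3, female D28 replicate 3 or male D28 replicates 1 or 3 (-1.22 to -1.13, 0.0611 to 0.0805). The 18-month fall was lost without female D12 replicates 3 or 4 or female D28 replicates 2 or 4 (-1.27 to -1.01, 0.0618 to 0.113) and passed in 6 of 11 other ways of processing.

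Pdcd1lg2, the neighbour of Cd274, was near or at the floor in naive eyes and was detected in nearly every injected eye. It was at 0 in 14 of the 19 naive libraries, and the highest naive levels were 0.652, 2.04 and 2.39 CPM at 3, 9 and 18 months. At D12 its lowest, median and highest levels were 0, 6.35 and 8.68 CPM at 3 months, 2.41, 3.61 and 9.17 CPM at 9 months and 1.05, 3.07 and 11.9 CPM at 18 months. At D28 they were 0.744, 2.12 and 5.67 CPM, 1.97, 3.57 and 7.99 CPM, and 0, 4.10 and 8.72 CPM. It rose at all 3 ages at D12 (adjusted p = 9.49e-05, 0.0028 and 0.00874) and at D28 (0.0206, 0.0141 and 0.0216). The fitted log2 fold changes of 4.90 ± 0.95, 4.63 ± 1.15 and 3.11 ± 0.87 at D12 and of 3.65 ± 0.96, 4.52 ± 1.15 and 3.09 ± 0.86 at D28 depend on the prior count, as naive eyes were nearly at 0. In 9-month females, where all 3 naive libraries were at 0, the level was at least 4.85-fold higher at D12 and at least 8.73-fold higher at D28, set against 3 counts per naive library. Within the collection days, the differences in mean log2 CPM at D12 were 2.74 and 3.37, 2.30 and 2.97, and 1.47 and 3.23, and at D28 2.81 and 1.85, 2.07 and 3.13, and 1.31 and 2.93. The change from D12 to D28 did not pass at any age (-1.25, -0.11 and -0.02). The D28 calls were lost at 3 months without male naive replicates 1 or 3 (adjusted p 0.0631 to 0.0781), at 9 months without male naive replicate 2 (0.139) and at 18 months without female naive replicates 1 or 2 or female D28 replicate 3 (0.0604 to 0.0768), whereas no D12 call was lost.

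Cd274 and Pdcd1lg2 lie 22823 bases apart on the plus strand of chromosome 19 (GRCm38, GENCODE), at chr19:29367455-29388095 and chr19:29410919-29471161. The library preparation did not keep strand, and an annotated antisense gene overlaps each of them (AC119228.1 and A930007I19Rik), so reads of the pairs cannot be told apart. The other genes lie at chr2:165055627-165072948 (Cd40, plus strand), chr16:38455561-38496335 (Cd80, plus), chr16:36603869-36666081 (Cd86, minus), chr10:78069302-78083913 (Icosl, plus), chr11:46454935-46481255 (Havcr2, plus) and chr6:124904361-124911705 (Lag3, minus), and reads over their exons were counted. As the neighbours rose together at D12, the 250 bases before each RefSeq start are shown (GRCm38.p6, plus strand, chr19:29367188-29367437 and chr19:29410669-29410918), with a match to the NF-kappaB consensus in capitals.
Cd274: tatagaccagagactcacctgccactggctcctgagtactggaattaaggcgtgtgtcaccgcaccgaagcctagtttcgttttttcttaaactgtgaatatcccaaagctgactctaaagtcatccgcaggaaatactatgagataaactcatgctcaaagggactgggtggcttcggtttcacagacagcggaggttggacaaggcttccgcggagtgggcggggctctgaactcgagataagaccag
Pdcd1lg2: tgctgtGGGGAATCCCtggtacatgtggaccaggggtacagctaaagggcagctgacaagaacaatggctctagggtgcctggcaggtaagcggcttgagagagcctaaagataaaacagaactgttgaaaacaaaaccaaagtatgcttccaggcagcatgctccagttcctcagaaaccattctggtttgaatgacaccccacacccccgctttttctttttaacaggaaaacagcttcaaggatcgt
Both strands were searched for the interferon gamma activated site TTCNNNGAA, the interferon-stimulated response element and the kappaB motif, which 7.02%, 2.98% and 7.25% of 32851 promoter windows of this length hold. The Cd274 window held no match, and the Pdcd1lg2 window held 1 kappaB match, from -244 to -235 relative to the start. Of the other genes, Icosl had 1 kappaB match, from -111 to -102. RefSeq windows were at hand for 5 of the 8 genes, and a match of letters is a description, not a binding site.

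Icosl, the ligand of ICOS, changed little. Its naive levels were 14.6, 33.5 and 82.2 CPM at 3 months, 18.0, 30.1 and 35.2 CPM in females and 26.9 and 92.7 CPM in males at 9 months, and 10.7, 25.1 and 41.8 CPM at 18 months. At D12 they were 39.2, 49.5 and 79.0 CPM, 28.0, 43.1 and 56.9 CPM, and 25.5, 32.3 and 66.8 CPM, and at D28 the medians were 43.8, 42.7 and 39.7 CPM. No injected library at 3 or 9 months exceeded the highest naive one, and 3 of 7 did at 18 months at each day. Icosl rose at 18 months at D12 (log2 fold change 0.80 ± 0.25, adjusted p = 0.0197) and at D28 (0.80 ± 0.25, 0.0451). The values at 3 and 9 months were 0.55 ± 0.24 (0.111) and -0.07 ± 0.27 (0.913) at D12. The 18-month D12 call was lost without female naive replicate 1 or male D12 replicates 1 or 3 (0.66 to 0.73, adjusted p 0.0501 to 0.082). The D28 call was lost without female naive replicate 1, male naive replicates 1, 3 or 4, female D28 replicates 2 or 3 or male D28 replicates 2 or 4 (0.66 to 0.82, 0.0596 to 0.171). Within the collection days the 18-month differences were 0.75 and 0.67 at D12 and 0.71 and 0.84 at D28. At 3 months the D12 difference passed without female naive replicate 4 (0.74, 0.0279).

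Havcr2 was present at 93.0 to 273 CPM in every library, naive eyes included. The naive levels were 202, 209 and 264 CPM at 3 months, 195, 212 and 256 CPM in females and 197 and 273 CPM in males at 9 months, and 185, 215 and 239 CPM at 18 months. At D12 they were 141, 180 and 221 CPM, 93.0, 152 and 267 CPM, and 111, 162 and 198 CPM, with 5 of 8, 5 of 7 and 5 of 7 libraries below the lowest naive one. Havcr2 fell at 9 months by 0.47 ± 0.17 on the log2 scale (adjusted p = 0.0401), and the values of -0.23 ± 0.15 (0.331) and -0.41 ± 0.15 (0.0579) at 3 and 18 months did not pass. The 9-month call was lost without male naive replicate 2, female naive replicate 1, female D12 replicates 2 or 3 or male D12 replicate 3 (-0.47 to -0.33, adjusted p 0.0667 to 0.295) and passed in 4 of 11 other ways of processing, with -0.36 and -0.58 within the collection days. The 18-month difference passed without female D12 replicate 1 or 2 (-0.46, 0.0385 to 0.0398) and without all 3 D12 libraries that stood apart (-0.56, 0.0137). At D28 the medians were 213, 207 and 178 CPM and no difference passed. The microglia marker sum fell at D12 as well (medians above), and its part in this result was not tested.

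Lag3, a receptor for MHC class II, was found in every naive library at a low level and was higher at D28 at every age. Its naive levels were 5.87, 7.68 and 11.5 CPM at 3 months, 5.24, 7.97 and 14.4 CPM in females and 5.90 and 6.51 CPM in males at 9 months, and 4.13, 9.32 and 13.8 CPM at 18 months. At D12 they were 12.7, 18.3 and 29.7 CPM, 2.67, 10.5 and 18.3 CPM, and 6.94, 17.9 and 29.4 CPM, with 8 of 8, 2 of 7 and 4 of 7 libraries above the highest naive one. At D28 they were 10.6, 17.7 and 26.5 CPM, 12.1, 18.7 and 25.9 CPM, and 16.2, 17.5 and 28.9 CPM, with 6, 5 and 7 of 7 above it. Lag3 rose at D12 at 3 months (log2 fold change 1.26 ± 0.31, adjusted p = 0.00225), and the values were 0.25 ± 0.35 at 9 months (0.698) and 0.83 ± 0.32 at 18 months (0.0673). At D28 it rose by 1.19 ± 0.32 (0.0253), 1.24 ± 0.36 (0.0325) and 1.14 ± 0.32 (0.0216) at 3, 9 and 18 months. Within the collection days the D28 differences were 0.85 and 1.39, 0.34 and 1.75, and 1.55 and 0.90. At 9 months it also rose from D12 to D28 (1.0 ± 0.32, 0.0354), the only rise among the 8 genes in that comparison.

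The D12 call of Lag3 at 3 months held without any single library, but its D28 calls lay near the threshold and each was lost without any 1 of several libraries. The 3-month call was lost without male naive replicates 1 or 3, female D28 replicate 3 or male D28 replicate 2 (1.06 to 1.11, adjusted p 0.0566 to 0.0993). The 9-month call was lost without female naive replicates 2 or 3, male naive replicates 1 or 2, female D28 replicate 3 or male D28 replicates 3 or 4 (1.10 to 1.28, 0.0549 to 0.213). The 18-month call was lost without female naive replicates 1 or 2, male naive replicate 2, female D28 replicate 4 or male D28 replicate 2 (0.99 to 1.08, 0.0525 to 0.0884). The 9-month rise from D12 was lost without any 1 of female D12 replicates 2 and 3, male D12 replicates 1 and 3, female D28 replicates 3 and 4 or male D28 replicates 3 and 4 (0.81 to 0.96, 0.0572 to 0.14). At 18 months the D12 difference passed without female naive replicate 3, female D12 replicate 4 or male D12 replicate 3 (0.95 to 1.14, 0.018 to 0.0398). T cells also make Lag3. The T cell marker sum had medians of 1.70, 117 and 32.2 CPM in naive, D12 and D28 at 3 months. At 9 months they were 0.605, 124 and 115 CPM and at 18 months 4.72, 236 and 87.0 CPM. In naive libraries the sum reached 38.5, 9.17 and 208 CPM at 3, 9 and 18 months, and Lag3 had medians of 7.68, 6.51 and 9.32 CPM. The part of T cells in the rises of Lag3 was not tested.

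At D28 against naive, 2, 3 and 5 of the 8 genes rose at 3, 9 and 18 months and none fell by edgeR or DESeq2, nor had a lower gene an unadjusted p under 0.05. Among all genes 1.99%, 2.47% and 3.14% rose and 0.788%, 1.52% and 1.68% fell. The genes that rose include Pdcd1lg2 at each age, whose rises cannot be weighed against these shares, as at D12. The D12 and D28 comparisons of an age share the naive libraries. The median log2 fold change of the 8 genes was 0.57, 0.58 and 0.97. From D12 to D28, Cd40 and Cd274 fell at each age, where 1.44%, 5.21% and 2.32% of all genes fell, and 1.35%, 4.11% and 0.486% rose.

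**Figure D2:**
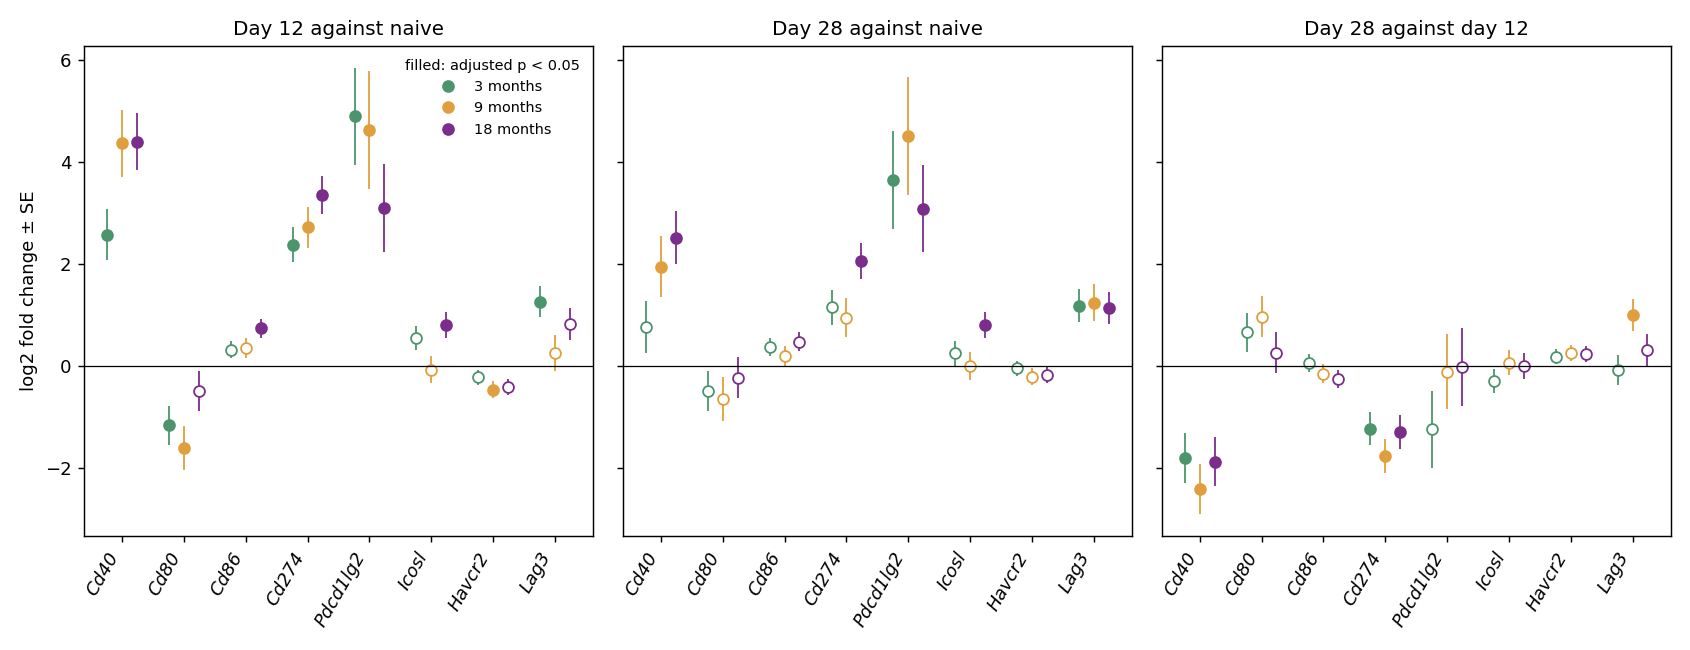
Log2 fold change ± SE of the 8 genes at 3 (green), 9 (orange) and 18 months (purple) for D12 against naive, D28 against naive and D28 against D12, with filled points for an adjusted p under 0.05. Cd40 and Cd274 are filled and above 0 at every age at D12 and filled and below 0 at every age from D12 to D28, and Lag3 is filled at every age at D28.

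Within each sex the fit had 2 to 4 libraries a group. Of 96 tests over the 12 comparisons of an injected group with its naive group, 23 passed, 18 at D12 and 5 at D28. Genes that passed in either direction made up 7.36% and 7.21% of all genes at D12 in 3-month females and males, 11.2% and 4.6% at 9 months, and 3.49% and 8.91% at 18 months. At D28 the shares were 0.788% and 0.537%, 1.52% and 0.147%, and 1.4% and 1.25%. The calls that passed include some of Pdcd1lg2, which cannot be weighed against these shares, as above. Cd40 and Cd274 rose at D12 in each of the 6 combinations of age and sex. The log2 fold changes of Cd40 in females and males were 2.33 and 2.83 at 3 months, 5.81 and 2.93 at 9 months and 3.13 and 5.68 at 18 months, and those of Cd274 were 1.77 and 2.99, 2.82 and 2.62, and 3.47 and 3.26. The Cd40 calls were lost in 3-month females without naive replicates 1, 3 or 4 (adjusted p 0.0549 to 0.0818), in 3-month males without naive replicates 1 or 3 (0.0596 to 0.0919), in 9-month males without either naive library or D12 replicates 1, 3 or 4 (0.0578 to 0.249) and in 18-month females without naive replicates 2 or 3 or D12 replicates 3 or 4 (0.0547 to 0.0887). The Cd274 call was lost in 9-month males without either naive library (0.0552 to 0.109).

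The other D12 calls within a sex were of Pdcd1lg2 at 3 months in both sexes and in 9-month females, Cd80 in 9-month females (-2.04, adjusted p = 0.0235), Icosl in 3-month males (1.12, 0.0436) and Cd86 in 18-month males (0.75, 0.0498). Pdcd1lg2 in 3-month males was lost without naive replicates 1 or 3 or D12 replicates 1, 3 or 4 (0.06 to 0.207), Cd80 without naive replicate 3 or D12 replicates 2 or 3 (0.0568 to 0.155), Icosl without naive replicates 1 or 2 or D12 replicates 1, 3 or 4 (0.0552 to 0.296), and Cd86 without any 1 of the 7 libraries (0.0557 to 0.15). At D28 the calls were Cd40 in 9-month females (3.53, 0.0122) and 18-month males (2.98, 0.0155), Cd274 in 18-month females (2.93, 0.00191), and Pdcd1lg2 in 3-month females (4.94, 0.0406) and 9-month females. Cd40 was lost without female naive replicates 1 or 3 or female D28 replicate 3 at 9 months (0.0653 to 0.151) and without male naive replicates 1, 2 or 4 at 18 months (0.0561 to 0.0812). Pdcd1lg2 was lost in 3-month females without naive replicates 2, 3 or 4 or D28 replicates 1, 2 or 4 (0.0526 to 0.214) and in 9-month females without naive replicate 1 (0.0881). Calls that appeared when 1 library was left out were Lag3 in 3-month females (without D12 replicate 3, adjusted p = 0.0427), Cd80 in 3-month males (without D12 replicate 3, 0.0484) and Pdcd1lg2 in 18-month females (without naive replicate 3, 0.0473) at D12, and Pdcd1lg2 in 18-month males without naive replicate 1 at D12 (0.00418) and D28 (0.0178).

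**Figure D3:**
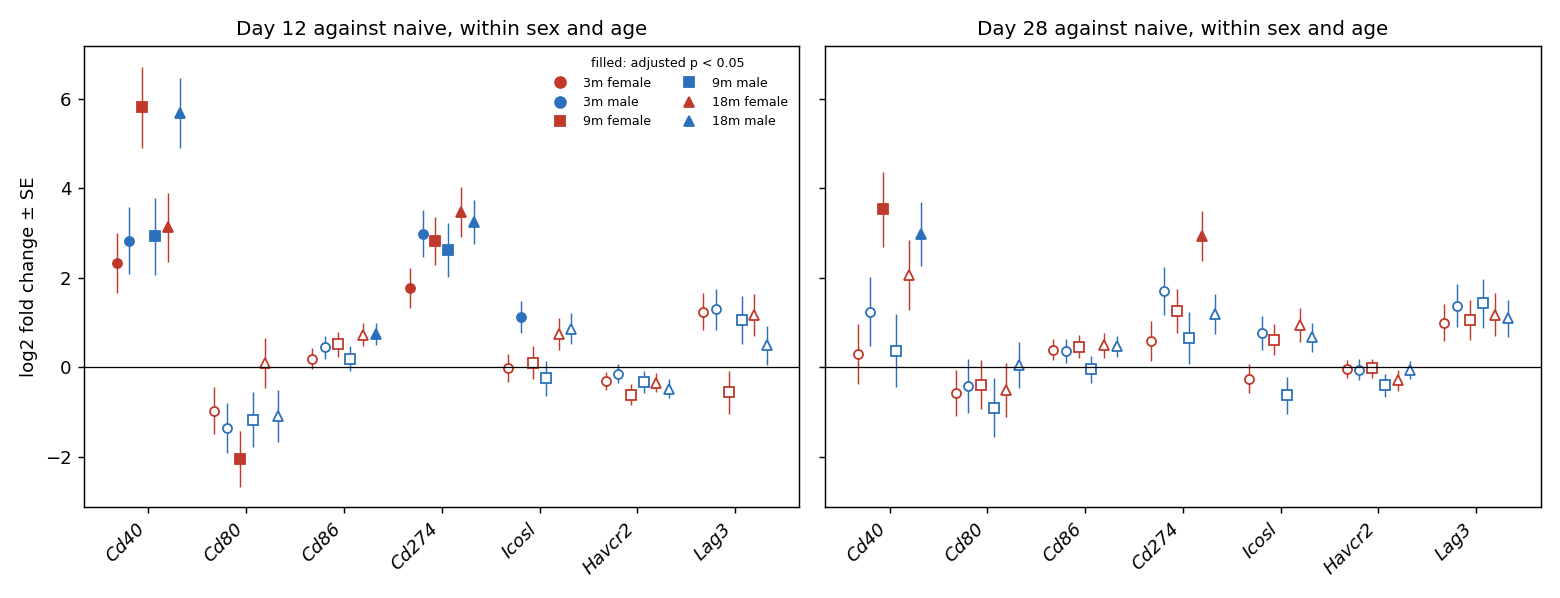
Log2 fold change ± SE of 7 genes within each sex (red female, blue male) and age (circle 3, square 9, triangle 18 months) at D12 and D28 against naive, with filled points for an adjusted p under 0.05. Pdcd1lg2 is left out because most of its naive libraries were at 0. All 6 points of Cd40 and of Cd274 are filled at D12.

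Whether an effect of day differed between the sexes was tested as an interaction. With edgeR 0 of 48 tests of the 8 genes passed, 10 had an unadjusted p under 0.05, none passed with DESeq2, and over all genes the share that passed was 0.0%. Without a filter on low counts 3 passed, all of Cd40 (9 months at D12, adjusted p = 0.00267, and at D28, 8.92e-04, and 18 months at D12, 0.00202). Their log2 fold changes were -2.88, -3.16 and 2.57. The share of all genes that passed in this setting is not at hand, so these calls cannot be weighed against it. The values that follow are from the filtered fit. The values closest to the threshold included Cd40 at 18 months at D12, higher in males by 2.55 ± 1.01 on the log2 scale (adjusted p = 0.475), and at 9 months, lower in males by -2.88 ± 1.10 at D12 (0.697) and -3.16 ± 1.14 at D28 (0.69). Cd274 at 18 months at D28 gave -1.74 ± 0.70 (0.738) and Lag3 at 9 months at D12 gave 1.61 ± 0.71 (0.704). The 18-month females hold the D12 replicates 1 and 2 and the 9-month males the D12 replicate 2 that stood apart. With each library left out in turn, Cd40 at D12 gave log2 fold changes of 5.31 to 7.40 in 9-month females and 2.40 to 3.85 in males. At 18 months they were 2.59 to 4.14 in females and 5.47 to 6.01 in males. The 9-month naive males (6.92 and 18.7 CPM) also lay above the naive females. The part of these libraries was not tested.

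Between ages at one day, 0 of 144 tests of the 8 genes passed with edgeR, 19 had an unadjusted p under 0.05, 3 passed with DESeq2 (Lag3 at D12 between 9 and 3 months, over both sexes and in females, and Icosl in naive females between 18 and 3 months), and 0.115% of all such tests over all genes passed. The lowest adjusted p was that of Lag3 at D12, lower at 9 than at 3 months by -1.11 ± 0.31 (0.0666). Cd40 at D12 was 1.38 ± 0.45 higher at 9 months (0.129) and 1.28 ± 0.45 higher at 18 months (0.156) than at 3 months, on the log2 scale. Leaving out 9-month male D12 replicate 2 brought Cd40 (1.56, adjusted p = 0.0381) and Lag3 (-1.19, 0.0341) past the threshold, and Lag3 also passed without 9-month male D12 replicate 4 (-1.22, 0.0477) or female D12 replicate 1 (-1.43, 0.0171), in females too without the latter (-2.29, 0.0195), as did Cd80 in females (-2.72, 0.0358). Of the 32 tests of whether the day effect differed between ages none passed with edgeR or DESeq2 and 5 had an unadjusted p under 0.05, against 0.0092% of all genes' tests that passed. Without a filter on low counts 3 of these passed, all of Cd40 (adjusted p = 0.0032, 6.77e-04 and 0.0118), and Cd40 at D12 was then higher at 9 months (1.39, 7.12e-06) and 18 months (1.27, 6.44e-05) than at 3 months with all libraries kept. Cd40 at D28 was then also higher than at 3 months at 18 months (1.21, 0.00477), and in females at 9 and 18 months (1.65, 0.00412, and 2.11, 3.64e-05). Cd274 at D12 was higher at 9 months (0.74, 0.0278), and Cd274 and Icosl were lower in 18-month naive females (-1.31, 0.022, and -1.33, 0.0335). The share of all genes that passed in these tests without the filter or with DESeq2 is not at hand. The D12 effect on Cd40 was 1.83 ± 0.70 larger at 18 than at 3 months (adjusted p = 0.286). Without the 3 D12 libraries that stood apart, a choice made after seeing the data, Cd40 at D12 was higher at 9 months (1.56, 0.00469) and at 18 months (1.75, 0.00145) than at 3 months, Lag3 was lower at 9 months (-1.19, 0.027), and the difference in the D12 effect on Cd40 between 18 and 3 months passed as well (2.30, 0.0183). These libraries had the lowest Cd40 at D12 of their ages (levels above), and none was from 3 months. Leaving out any of them, 9-month male D12 replicate 2 included, raises Cd40 at the older ages by construction. The passed tests of Cd40 therefore cannot show a difference between ages.

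Of the partners of these genes on T cells, Ctla4 and Cd40lg were scarce in naive eyes and Pdcd1 was not. Ctla4 was at 0 in 18 and Cd40lg in 17 of 19 naive libraries. Both passed the filter on low counts through the injected eyes, so their rises cannot be weighed against the share of all genes. Of 8 partner genes tested, 2 rose and 1 fell at D12 at 3 months, 4 rose and 1 fell at 9 months and 3 rose at 18 months, where 9.42%, 10.5% and 9.53% of all genes rose and 7.23%, 7.91% and 6.02% fell. Icos rose at each age (log2 fold changes 3.26 ± 0.83, 2.86 ± 0.96 and 4.12 ± 1.0). Icos had a median over all ages of 1.06 CPM in naive, 8.97 at D12 and 3.39 at D28. Cd28 rose at D12 at 9 months (3.68 ± 1.28) and 18 months (4.45 ± 1.08), but at 3 months its mean was 5.38 CPM in naive and 5.29 CPM at D12 (-0.05 ± 0.78), and the value at D28 was -1.48 ± 0.85 (adjusted p = 0.49). Pdcd1, the receptor of PD-L1 and PD-L2, was present in naive eyes with medians of 24.3, 26.1 and 49.2 CPM at 3, 9 and 18 months and 18.6, 36.1 and 30.6 CPM at D12, and did not pass (adjusted p 0.464, 0.636 and 0.45). At D28 no partner passed at 3 or 9 months, and at 18 months Cd28 and Icos rose and Ceacam1 fell. The lists of partners and pathways were chosen with earlier results of these data known. The T cell marker sum was higher at D12 beside these genes (147 against 1.70 CPM), and its part was not tested. The median log2 fold change of the partner list was 0.09, 1.63 and 1.95, and 0.09, 1.02 and 1.95 with genes of no naive count set to their bound.

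Of 10 other B7 and TNF family costimulators, 4, 3 and 2 rose and 2 fell at each age at D12, against 9.42%, 10.5% and 9.53% of all genes that rose and 7.23%, 7.91% and 6.02% that fell. Of those that rose at 3 months, Cd70, Tnfsf15 and Tnfsf14 were at 0 in 19, 18 and 16 of 19 naive libraries. They passed the filter on low counts through the injected eyes, so their rises cannot be weighed against the share of all genes. Tnfsf15 was at 0 in all naive libraries at 3 and 9 months and at least 7.84-fold and 6.73-fold higher at D12, and rose by a log2 fold change of 4.13 ± 1.31 at 18 months. Cd276 (B7-H3) fell by 2.53, 2.74 and 3.43 on the log2 scale. Vsir, which encodes the inhibitory ligand VISTA and is abundant in microglia, fell by 1.31 ± 0.24, 1.67 ± 0.27 and 1.79 ± 0.26 from naive medians of 621, 683 and 619 CPM to 246, 165 and 142 CPM at D12. Of 15 other inhibitory receptors and ligands, 5, 8 and 6 rose and 0, 2 and 0 fell at D12, and 4, 5 and 4 rose at D28. At D28 1.99%, 2.47% and 3.14% of all genes rose. Lilrb4a rose by 2.92, 3.02 and 3.60, and Cd244a, a receptor of NK cells and some T cells, by 1.89, 4.08 and 3.48. Tigit was at 0 in the naive libraries at 3 and 18 months and its mean was at least 2.42-fold and 2.23-fold higher at D12, and it rose by a log2 fold change of 4.08 ± 1.46 at 9 months. At D12 Tigit was still at 0 in 2 of 8 libraries at 3 months (median 0.991 CPM) and in 3 of 7 at 18 months (median 0.256 CPM). It too passed the filter on low counts through the injected eyes.

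CD40 acts through TRAF adaptors and NF-kappaB, and interferon gamma induces the transcription factor IRF1. Of 12 genes of CD40 signalling, 4 rose at D12 at 3 months, 6 rose and 1 (Map3k14) fell at 9 months, and 1 rose at 18 months, against 9.42%, 10.5% and 9.53% of all genes, so that the share at 18 months was no higher than that of all genes. None passed at D28. Traf1, an adaptor of CD40, rose at all 3 ages (log2 fold changes 3.99 ± 1.06, 4.30 ± 1.21 and 2.85 ± 0.97). Its means were 0.122, 0.146 and 0.734 CPM in naive and 2.06, 3.59 and 3.54 CPM at D12. These lie near the floor, so the fold changes depend on the prior count. Of 8 genes of the interferon gamma pathway, 3, 3 and 4 rose and Ifngr1, a receptor chain, fell at each age at D12. Of all genes, 9.42%, 10.5% and 9.53% rose and 7.23%, 7.91% and 6.02% fell. Ifng, which rose at 3 and 18 months, was at 0 in 16 of 19 naive libraries. It passed the filter on low counts through the injected eyes, so its rises cannot be weighed against these shares. Irf1 rose by 1.99 ± 0.29, 2.09 ± 0.34 and 2.62 ± 0.31 on the log2 scale. From D12 to D28 2, 3 and 3 of these 8 genes fell, Irf1 at each age, where 1.44%, 5.21% and 2.32% of all genes fell. The median log2 fold change of this list at D12 was 0.88, 1.47 and 1.74, and 0.69 at 9 months with genes of no naive count at their bound, and that of the CD40 list 0.47, 0.59 and 0.39.

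Per kilobase of exon, using GENCODE exon lengths, Cd86 and Havcr2 led at each day and Pdcd1lg2 was lowest. In naive eyes the means over 19 libraries were 118 ± 26.0 (SD) for Cd86, 80.6 ± 9.06 for Havcr2, 8.53 ± 2.7 for Cd80, 7.53 ± 4.56 for Icosl, 4.95 ± 2.18 for Cd274, 3.99 ± 1.44 for Lag3, 1.65 for Cd40 and 0.175 CPM per kilobase for Pdcd1lg2. The SDs of Cd80, Icosl, Cd274 and Lag3 overlapped from each to the next. At D12 Cd274 (33.9 ± 14.5) and Cd40 (22.5 ± 15.3) came next after Havcr2 (63.5), and Cd80 (4.38 ± 2.41) lay above Pdcd1lg2 (2.52 ± 1.51) alone. Cd274 and Cd40 did not differ beyond their spread, nor did Icosl (9.94) and Lag3 (7.33). At D28 Cd274 (12.7 ± 5.49) again came next after Havcr2 (74.1), followed by Icosl (9.17), Lag3 (8.89), Cd80 (6.38) and Cd40 (5.43), which overlapped in their SDs.

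**Figure D4:**
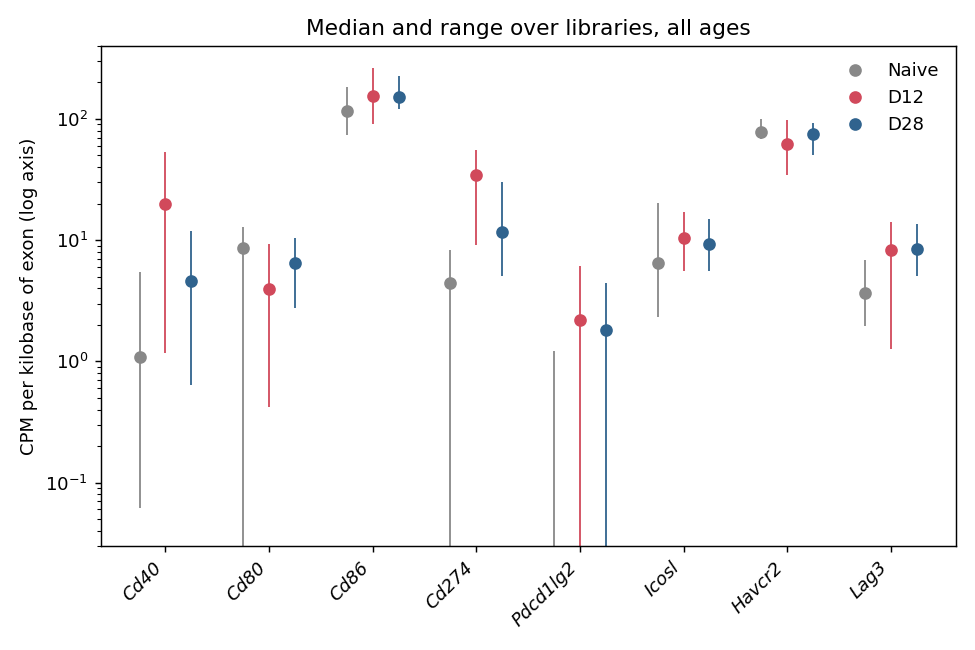
Median (points) and range (lines) of CPM per kilobase of exon over all ages on a log axis, for naive (grey), D12 (red) and D28 (blue). Lines that reach the bottom axis include libraries at 0, and the naive median of Pdcd1lg2 is 0 and is not drawn. Cd274 and Cd40 have their highest medians at D12, and Cd80 its lowest.

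Over the 62 libraries, the genes whose log2 CPM correlated most with Cd40 were Fgl2 (Pearson's r = 0.904), Ifi47 (0.901) and Ifi211 (0.897), and with Cd274 were Nampt (0.937), Gbp9 (0.908) and Zbp1 (0.907). With group means removed these values were 0.740, 0.743 and 0.769 for Cd40 and 0.853, 0.825 and 0.693 for Cd274, and those of the genes below were 0.845, 0.818 and 0.760 for Cd86, 0.418, 0.300 and 0.091 for Pdcd1lg2, 0.645 and 0.609 for Icosl, 0.727, 0.673 and 0.687 for Havcr2, 0.429, 0.405 and 0.480 for Lag3 and 0.815, 0.809 and 0.801 for Cd80. For Cd86 they were Ppt1 (0.901), Dram2 (0.863) and Casp1 (0.850), and for Pdcd1lg2 AA467197 (0.780), Nlrc5 (0.765) and C3 (0.762). For Icosl they were Chuk (0.758) and Vps41 (0.710), for Havcr2 Laptm5 (0.791), Ivns1abp (0.786) and Serinc3 (0.765), and for Lag3 Ctss (0.718), C1qa (0.709) and Slamf6 (0.695). For Cd80 they were Gm5086 (0.862), Cul1 (0.856) and Cfap74 (0.846), which were 0.769, 0.796 and 0.723 without 18-month female naive replicate 1. Among the 8 genes, Cd40 and Cd274 correlated at 0.72, which was 0.28 with group means removed, and Cd40 and Cd80 at -0.45 and -0.24. Cd80 and Cd86 correlated at 0.22, and at 0.47 with group means removed. These values share libraries, depth and the day effect, and are given as descriptions.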

How the data were processed

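Retinal microglia were sorted (600 cells per retina), cDNA was amplified with SMART-Seq v4 (16 PCR cycles), and libraries were made with Nextera XT and sequenced single-end. Per the labels and the study's methods, bcl2fastq 2.20 and STAR 2.7.8a (mm10) were used, reads were counted per refGene gene with featureCounts, and the authors removed the effect of the 2 collection days from the counts with ComBat_seq. The deposited values are whole-number counts, before and after this correction. Amplified reads carry no molecular identifiers, so sampling error is larger than the counts alone give.

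Of the 64 samples, 62 libraries were used, after leaving out 1 by the rule that chose the genes and 1 that is in the uncorrected table only. Both disagree with their labels in sex-linked genes. The corrected counts were fitted with edgeR 4.0.16 in R 4.3.3 (TMM factors, filterByExpr, glmQLFit and glmQLFTest, 18 group means). Levels are CPM, and an adjusted p under 0.05 was called. Fits were tested on simulated data with known changes. The authors used DESeq2, run here as an alternative (1.42.0), and limma 3.58.1 was loaded by edgeR. Other alternatives were size factors of the RLE kind, no filter, a test against a log2 fold change of 1, the same age only, uncorrected counts with and without collection day, a replicate block, the library with 2 day labels at D12, the left-out library kept in, 3 D12 libraries left out together (added after seeing the data) and each library left out in turn.

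The 8 genes and all lists were chosen with earlier results of these data known. The text names all 8 genes in every comparison. From each pathway list it names up to 3 genes in each direction with the largest mean absolute change that passed at D12 at all 3 ages, and it names 5 partner receptors with levels, the 3 genes most like each of the 8, and the 2 highest genes of each marker list, except for some items that are not reported here. Lilrb4, Cd244 and Trbc2 are not symbols of the table, and Fgl1, Vtcn1, Tnfsf4, Vsig4, Pax5 and Chil3 did not pass the filter. The B cell list (Cd79b and Cd79a highest) had medians of 84.8, 48.9 and 54.3 CPM in naive, D12 and D28, the dendritic cell list (Batf3 and Xcr1) 74.5, 72.0 and 57.6 CPM, and the photoreceptor list 1868, 760 and 1520 CPM. Libraries with the same replicate number did not deviate together (mean correlation -0.0117 over 464 pairs, against 0.0046 over 1348 other pairs), and no 2 libraries were identical.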

Additional observations from a re-analysis of the deposited data

Results flagged for a closer look

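In groups of 4 libraries, 1 library lay far from the other 3 in 8 of 72 tests (Dixon's ratio), where chance alone flags about 1 in 20. Cd40 was 39.7 CPM in 9-month female D28 replicate 3 against 13.4 to 16.4 CPM in the others, and 15.2 CPM in 18-month male D28 replicate 3 against 23.4 to 24.9 CPM. Cd274 was 18.3 CPM in 3-month female D28 replicate 3 against 36.3 to 39.9 CPM. Cd86 was 790 CPM in 18-month female D12 replicate 3 against 485 to 522 CPM, and 831 CPM in 18-month male D28 replicate 4, the library with 2 day labels, against 568 to 612 CPM. Lag3 was 9.81 CPM in 3-month female naive replicate 2 against 7.66 to 7.83 CPM. Pdcd1lg2 was 2.39 CPM in 18-month male naive replicate 1 and 0.423 CPM in 3-month female naive replicate 1, with the other 3 libraries of each group at 0.

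Both libraries that were left out carried D28 labels and had levels above the highest naive library, on uncorrected CPM. The library labelled 18-month female D28 replicate 1 had 148 CPM of Cd40, 205 CPM of Cd274 and 5.40 CPM of Pdcd1lg2, and the one labelled 9-month male D28 replicate 1 had 22.1 CPM of Cd40, 90.9 CPM of Cd274 and 23.3 CPM of Lag3. The highest naive levels on that scale were 18.4, 36.9, 2.69 and 14.2 CPM for Cd40, Cd274, Pdcd1lg2 and Lag3.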

How the results depend on the processing

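No called result changed sign under the alternatives. Differences that had not passed did, such as Icosl at D12 at 9 months (-0.39 to 0.53 with 1 library left out), Pdcd1lg2 from D12 to D28 at 18 months (-0.38 to 0.35), and Cd80 at 18 months and Cd86 at 9 months at D12 between the collection days (1.78 and -0.99, 1.0 and -0.23). DESeq2 called 586 genes in D28 against D12 at 3 months (379 by edgeR), 871 at D28 at 9 months (543) and 3 of the 8 genes between ages (0). Without a filter the counts were 662 at D28 at 3 months (377), 670 for D28 against D12 at 3 months, 875 at D28 at 9 months and 653 for D28 against D12 at 18 months (381), and of the 8 genes 9 tests passed at D28 within sexes (5), 3 for sex by day, 11 between ages and 3 for age by day. Against a log2 fold change of 1, 455, 67 and 14 genes passed at 3 months (D12, D28, D28 against D12; 2261, 377 and 379 in the fit reported), 562, 79 and 46 at 9 months (2495, 543 and 1266) and 443, 106 and 26 at 18 months (2113, 655 and 381). Of the 8 genes 3, 3 and 2 then passed at D12, 0, 0 and 1 at D28, 0 from D12 to D28, and 8 and 1 tests within sexes at D12 and D28 (18 and 5). With libraries of the same age only, 776 genes passed at D28 at 3 months and 874 against D12, 274 (1 of the 8) at D28 at 9 months and 717 against D12, and 114 (0 of the 8) at 18 months against D12, with 2 of the 8 at D28 at 18 months. Uncorrected counts gave 223 at D28 and 190 (0 of the 8) against D12 at 3 months, 257 at D28 at 9 months, 178 (0 of the 8) against D12 at 18 months and 3 D28 calls within sexes, and with collection day as a term 1 of the 8 from D12 to D28 at 18 months. For that comparison, the library with 2 day labels at D12 left 0 of the 8, and the left-out library kept in left 12 genes and 0 of the 8. Without the 3 D12 libraries that stood apart it had 1108 genes, of which 34.8% were higher (17.3% in the fit reported), and 5 of the 8-gene tests passed between ages and 1 for age by day. An adjusted p under 0.1 gave 2 between ages. Spearman's correlation shared 13 of 24 likest genes.

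With the replicate block 5, 4 and 5 of the 8 genes passed at D12, 2, 1 and 5 at D28 and 2, 3 and 2 from D12 to D28 at 3, 9 and 18 months. It changed the count at D28 at 9 months to 1 (3 without it) and no other count by over 1.5 times. Leaving out each library in turn gave 1467 to 2756 genes at D12 at 9 months and 154 to 680 at D28 at 9 months (both lowest without 9-month male naive replicate 2), 233 to 365 at D28 at 3 months (lowest without male naive replicate 1), and for D28 against D12 174 to 452 at 3 months, 771 to 1648 at 9 months and 115 to 577 at 18 months (lowest without 3-month male D28 replicate 3, 9-month male D28 replicate 3 and 18-month female D12 replicate 4). Of the 8 genes 0 to 3, 0 to 3 and 2 to 5 passed at D28 and 0 to 2 at 3 and at 18 months from D12 to D28, with 3 to 5 D28 calls within sexes and 0 to 3 between ages. The cause of these changes was not tested. Depth limits genes such as Pdcd1lg2, Ctla4, Cd40lg and Traf1, which lay at or near the floor of 3 counts in naive eyes.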
